A study of Homo sapiens with 6 samples.

Results

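The CpGs described here lie in 3 windows of 1000 bases that drew the most reads of all windows in a bisulfite sequencing data set of PC-3 cells, an established line of human prostate carcinoma. The first and second windows are neighbours on chromosome 21 (hg19, chr21:9825001-9826000 and chr21:9826001-9827000), and the other one lies on chromosome 1 (hg19, chr1:156186001-156187000). A CpG was a member when at least 10 reads covered it in each of the 6 libraries. This held for 75, 173 and 44 CpGs in the first chromosome 21 window, the second one and the chromosome 1 window, together 292 of the 342 CpGs listed there. The data set as a whole holds 336571 CpGs with that coverage, called common CpGs below, of 1275871 listed in any library. On the strands taken apart, 218 members were read on the plus strand and 261 on the minus strand in all 6 libraries, and 194 on both. Positions are those of the plus-strand C of each CpG.

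Cells had been given 160 µM S-adenosylmethionine (SAM) or phosphate-buffered saline (PBS, the control) for 5 days, and each group has 3 libraries of genomic DNA. All 6 libraries come from this 1 line, and the labels do not say whether replicates were separate cultures, so every p-value measures only the spread between these libraries, which may be technical. The members are not replicates of a condition, since CpGs of 1 library that lie on the same reads share their molecules. Reads over listed positions numbered 179379782, 36220663 and 120492978 in SAM libraries 1 to 3, and 150331703, 33056018 and 183523792 in control libraries 1 to 3.

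SAM is the methyl donor of the DNA methyltransferases, which place methyl groups on the C of CpGs. Genes for the ribosomal RNAs lie in tandem copies on the short arms of the acrocentric chromosomes, chromosome 21 among them. RNA polymerase I transcribes each copy into a long precursor, from which an external spacer is removed ahead of the RNA of the small ribosomal subunit. In mammalian cells a part of these copies is kept silent, and CpG methylation of a copy is one of the marks known from silent ones. The number of copies whose reads fell into each window was not measured here, so each level below is an average over reads whose copy of origin is unknown.

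The label of the windows as similar to ribosomal RNA genes was checked through the spacing of their CpGs, because no genome sequence of this build was used. RefSeq sequences (GRCh38.p14) were laid over the listed CpGs, and a match required a listed CpG at every CG of the sequence and none elsewhere in it. Of 196 miRNA hairpins with at least 5 CpGs, 2 matched, both at the same place in the second chromosome 21 window, and each spacing occurred at 1 place among all CpGs listed in the data set. They are MIR10396B, at chr21:9826449-9826499, and MIR10396A, at chr21:9826450-9826498. RefSeq places MIR10396B inside the ribosomal precursor gene RNA45SN1, where RNA18SN1, the gene of the small subunit RNA, starts 552 bases after the start of MIR10396B. The first base after the second window lies 552 bases after the matched start, so by the RefSeq distance RNA18SN1 would start there. That border comes from the fixed length of the windows and marks no gene start, so it does not test the placement. The mature miRNA hsa-miR-3648 matched in the first window at chr21:9825859-9825879. Its 4 CpGs alone say little, since the same spacing occurred at 734 places, but its start lies 591 bases before that of MIR10396A both here and in RefSeq. The 2 sequences are shown because they tie the windows to the precursor, with CpGs in capitals and the bases as RNA, 5′ to 3′ on the plus strand.
MIR10396B hairpin: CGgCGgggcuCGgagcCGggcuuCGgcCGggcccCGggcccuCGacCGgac
hsa-miR-3648, CpGs in capitals: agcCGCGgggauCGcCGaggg
hsa-miR-3648, seed (bases 2 to 8) in capitals: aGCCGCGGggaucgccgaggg

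By that placement the chromosome 21 windows cover the stretch of external spacer directly ahead of the small subunit RNA. Of 44 mature miRNAs with at least 4 CpGs, 14 matched somewhere in the windows, each with a spacing found at 107 to 1096 places, so spacing alone placed none of them. Besides hsa-miR-3648, hsa-miR-10396b-5p matched where the hairpin that holds it was placed, at chr21:9826449-9826468 (676 places). None of 19809 promoter sequences with at least 10 CpGs matched. No sequence placed the chromosome 1 window, which is therefore called by its position only. No gene annotation of hg19 was used, so exons and introns are not given for the CpGs.

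The windows were chosen by their read depth over the 6 libraries, which is therefore given as a description, and the coverage minimum also used those reads; methylation levels were not used. The members took 8.01, 11.2 and 8.64% of all listed reads in SAM libraries 1 to 3, and 8.17, 8.08 and 6.88% in control libraries 1 to 3. Of the reads at common CpGs, the first, second and chromosome 1 windows held on average 1.47, 5.64 and 3.17%. The deepest window outside the rule, chr1:60662001-60663000, held 0.325% with 2 common CpGs. Within the windows depth was far from even. The deepest member, 156186586 on chromosome 1, had 658548, 87672 and 146540 reads with SAM and 306485, 34051 and 592902 in controls, while the shallowest members had 10 reads in a library.

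To compare libraries, depth is given as RPM, the reads at a position scaled to 1000000 listed reads of the library. Depth changed in steps rather than gradually, as the plot of read depth along the windows shows. The largest step on the minus strand lay on chromosome 1 between 156186507 and 156186530. The 6 libraries had 21 to 158 minus-strand reads at the first of these CpGs and 31409 to 611608 at the second, a geometric mean change of 3198-fold. In the second chromosome 21 window minus-strand reads numbered 11 to 84 at 9826150, against 15553 to 116310 at 9826146, the neighbouring CpG 4 bases earlier. Every library showed these steps at the same CpGs.

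**Figure D1:**
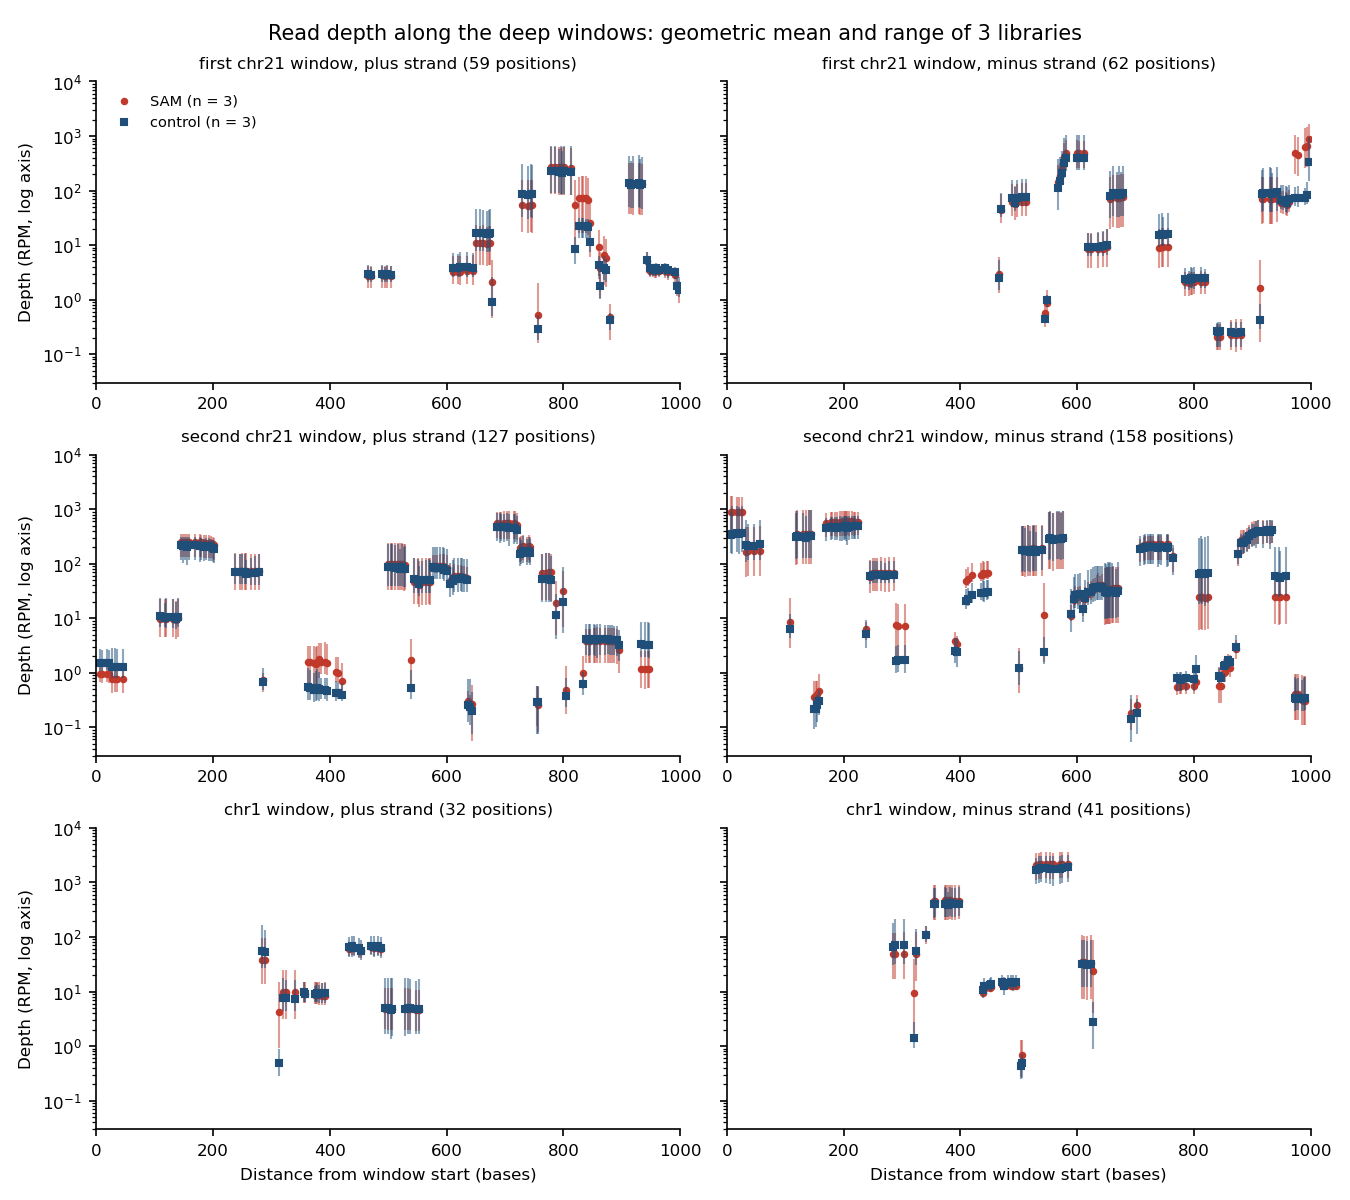
Read depth of every member position (RPM, log axis) against distance from the window start, by window and strand, with the geometric mean (SAM circles, control squares) and the range of 3 libraries. Depth stays level over runs of CpGs and jumps between them, and the deepest run is on the minus strand of the chromosome 1 window.

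A read block is here a run of consecutive positions on 1 strand between which reads changed less than 1.5-fold on average over the libraries and which lie no more than 50 bases apart. The members formed 104 blocks, 46 on the plus and 58 on the minus strand, of up to 16 CpGs, and 33 blocks held a single CpG. Methylation followed the blocks. Between neighbouring CpGs of 1 block the mean level differed by a median of 2.16 percentage points on the plus strand and 2.04 on the minus strand. Across a block border it differed by 22.6 and 12.7 points. Outside the windows the same medians were 1.16 and 1.15 points within blocks and 1.8 points on both strands across borders. The steps of the windows were larger in these data, but no test was made and CpGs of like level or depth were not compared.

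Most members were methylated at an intermediate level. The mean level over the 6 libraries lay between 20 and 80% at 232 of 292 members (79.5%), against 13.3% of the other common CpGs. In the first, second and chromosome 1 windows the share was 88.0, 71.1 and 97.7%. Among CpGs of other windows with 40 or more listed CpGs, a minimum below the 52 to 202 listed in the windows described here, it was 11.2%, and among 423 CpGs of the 20 next deepest windows 34.3%. The median level was 45.4% in the first chromosome 21 window, 62.0% in the second and 61.4% in the chromosome 1 window, and 8.43% among the other common CpGs. None of the 20 common mitochondrial CpGs was between 20 and 80%. Their mean level, a gauge of C left unconverted by bisulfite, was 0.164, 0.104 and 0.0877% in SAM libraries 1 to 3 and 0.108, 0.488 and 0.142% in control libraries 1 to 3.

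Averaged over CpGs, the members stood at 57.0%, against 38.4% for the other common CpGs. The difference was 18.6 points ± 1.97 (SD over 6 libraries), the members were higher in 6 of 6 libraries, and an exact two-sided sign-flip permutation test over the libraries gave p = 0.03125, the smallest it can give. Against the other windows with 40 or more listed CpGs the members were 36.9 points higher, and against the 20 next deepest windows the difference was -10.2 points, each in 6 of 6 libraries with the same exact permutation p = 0.03125. At members of 20 to 80% the SD between libraries of a group had a median of 3.59 points. This median was 10.3 points at 44775 other CpGs of 20 to 80%. It was 4.52 points at the 3315 of these with at least 100 reads in each library. Median reads of the members were 3043 to 30439 by window and library, so depth was not matched.

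**Figure D2:**
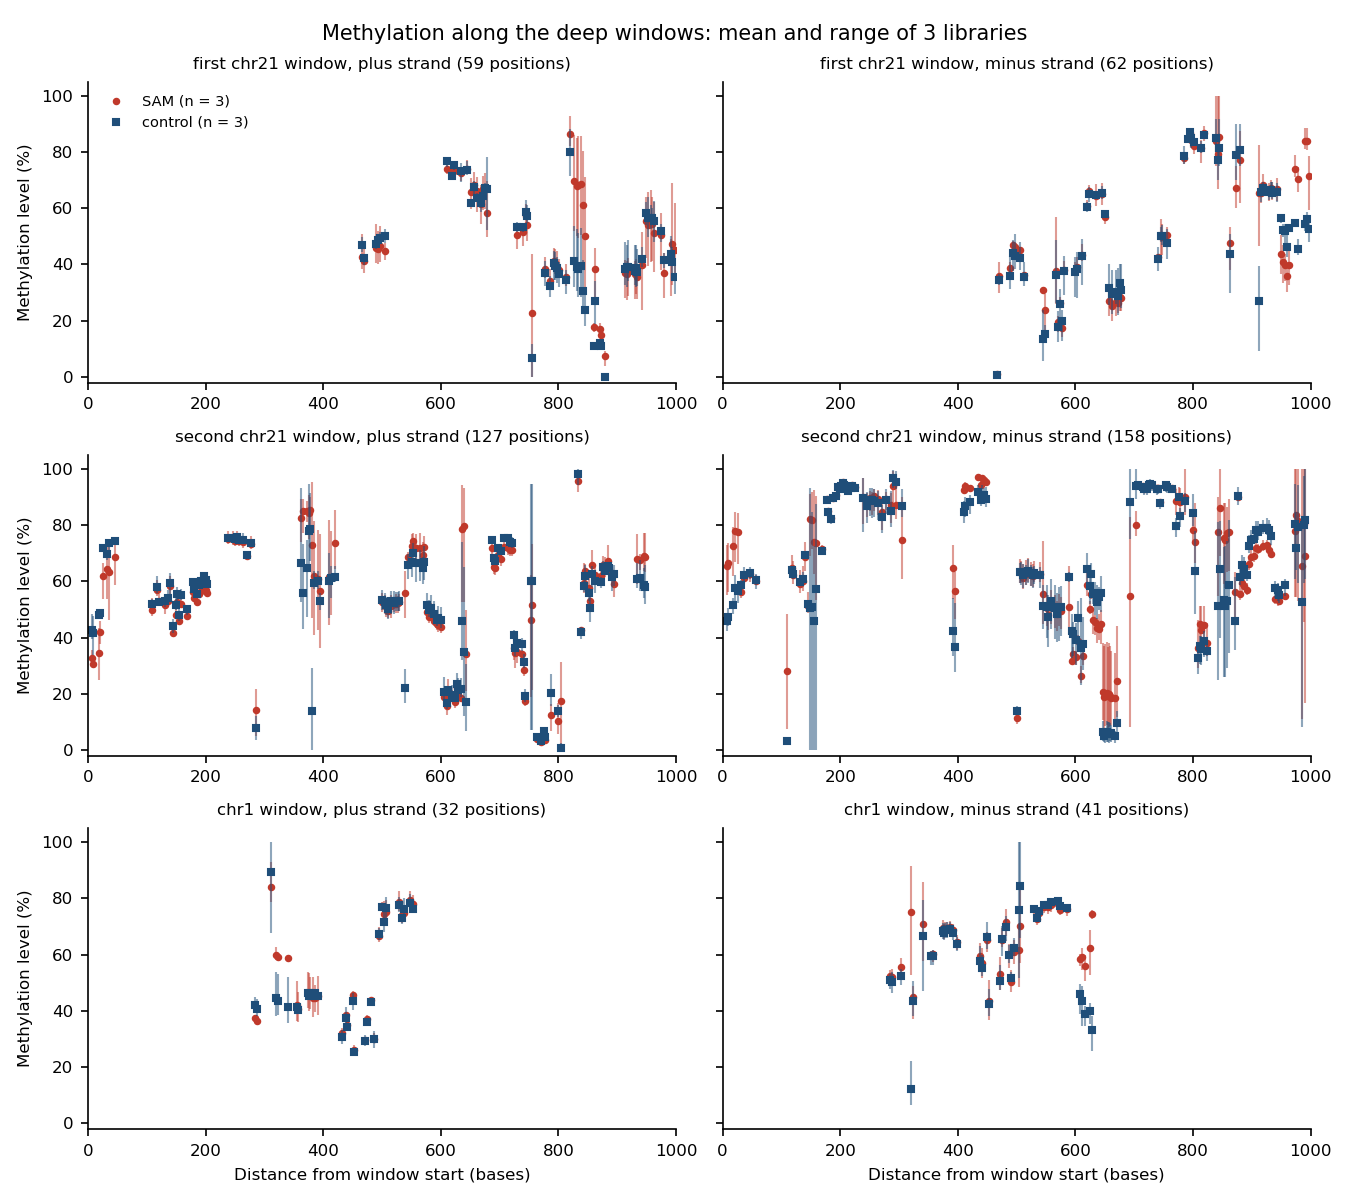
Methylation level (%) of every member position against distance from the window start, by window and strand, with the mean (SAM circles, control squares) and the range of 3 libraries. Levels run in plateaus that differ between the strands, and SAM and control points overlie each other except at a limited set of positions.

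The highest and lowest members show the range. At 9826205 in the second chromosome 21 window, the highest there, the levels were 94.3, 95.4 and 95.5% with SAM and 95.4, 95.2 and 93.8% in controls, at 8814 reads or more in each library. At 9826772, the lowest, they were 6.15, 2.68 and 3.03% with SAM and 4.26, 4.91 and 5.80% in controls. In neither do the groups stand apart. In the first chromosome 21 window the lowest was 9825862, in the sequence of hsa-miR-3648, at 16.7, 18.7 and 19.6% with SAM and 12.0, 12.3 and 15.2% in controls. The highest there was 9825718, with 100% in 5 libraries but only 10 to 218 reads, and 70.6% in SAM library 3. The deepest CpG of that window, 9825612, had 41.8, 47.3 and 42.1% with SAM and 49.3, 47.7 and 33.2% in controls, with overlapping groups. On chromosome 1 the lowest member, 156186454, had 27.3, 31.4 and 28.7% with SAM and 28.6, 27.4 and 29.7% in controls. The highest, 156186313, had 80.4, 93.0 and 70.7% with SAM and 67.6, 100% and 100% in controls, where reads numbered 29 to 71. The deepest member of all, 156186586, had 73.7, 77.3 and 77.4% with SAM and 76.6, 77.0 and 76.5% in controls.

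The same CpG often had different levels on its 2 strands. Over members read on both strands, the minus strand less the plus strand was on average 8.09 points ± 1.65 in the first chromosome 21 window (52 CpGs), 17.1 ± 2.22 in the second (113 CpGs) and 13.1 ± 0.855 in the chromosome 1 window (29 CpGs; SD over 6 libraries each). The minus strand was higher in 6 of 6 libraries in all 3 windows (exact two-sided sign-flip permutation p = 0.03125 each, adjusted 0.03125 over the 3). The value of the first window depended on the setting. With at least 100 reads per strand it was -3.93 points (32 CpGs, exact permutation p = 0.0625). With CpGs weighted by their reads it was 14.3 points (52 CpGs, exact permutation p = 0.03125). Over 7714 other CpGs read on both strands the mean difference was 0.127 points (exact permutation p = 0.3125).

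Without regard to sign, the strands of a member differed by 24.0 points on average, 17.4 points more than at the other CpGs (6.58 points; higher in 6 of 6 libraries, exact sign-flip permutation p = 0.03125). At the 69 other CpGs with at least 100 reads on each strand the gap was 13.3 points. That was 10.7 points smaller than among all 194 members (exact permutation p = 0.03125). The members were not limited to that depth, so this comparison is not matched for depth. A gap of over 20 points was present at 89 of 194 members (45.9%), against 3.80% of the other CpGs. The minus strand was higher in all 6 libraries at 108 members and the plus strand at 25.

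At 9826203, read deeply on both strands, the minus strand had 93.5, 94.7 and 94.7% with SAM and 94.5, 94.5 and 93.1% in controls. The plus strand of the same CpG had 55.4, 56.9 and 54.9% with SAM and 59.0, 58.0 and 60.5% in controls. Each strand thus kept its own level in all 6 libraries. At 9826772 the plus strand stood between 2.19 and 4.40% and the minus strand between 75.8 and 92.9%, and because the plus strand had 3610 reads or more and the minus strand 190 or fewer, the joined level stayed low. The opposite case was 9825467 in the first window, where the minus strand stood at 1.24, 0.935 and 0.817% with SAM and 1.07 and 0.562% in control libraries 1 and 2, at 107 to 734 reads. In control library 3 it was 0 of 277 reads, which allows a level of up to 1.08%, for counting error only. Its plus strand had 38.9, 50.9 and 38.4% with SAM and 44.4, 46.5 and 49.6% in controls. A joined level in these windows therefore depends on which strand was read more.

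**Figure D3:**
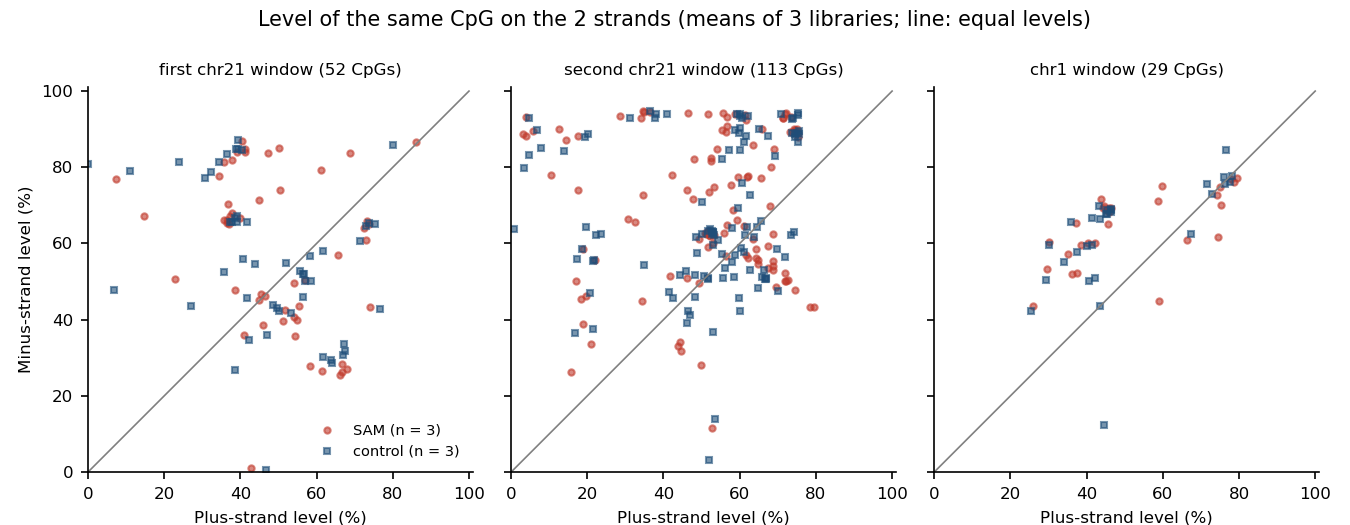
Minus-strand against plus-strand level (%) of the 194 members read on both strands, by window, as the mean of 3 libraries (SAM circles, control squares); the line marks equal levels. Points lie far from the line on both sides on chromosome 21 and mostly above it on chromosome 1.

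The effect of SAM on the mean level of each window was compared next. In the first chromosome 21 window the members averaged 47.9, 48.9 and 47.5% with SAM and 44.7, 42.2 and 47.2% in controls, that is 48.1% ± 0.733 with SAM and 44.7% ± 2.45 in controls (SD, n = 3). The difference of 3.41 points (SE 1.48) left the groups without overlap, with an exact two-sided permutation p = 0.10, the smallest that 3 libraries against 3 allow, and an adjusted p of 0.18 over 9 differences of window and strand. In the chromosome 1 window the levels were 60.1, 62.3 and 61.3% with SAM and 56.3, 58.0 and 59.8% in controls, a difference of 3.19 points (SE 1.19), again without overlap (exact permutation p = 0.10, adjusted 0.18). In the second chromosome 21 window they were 61.0, 64.6 and 59.1% with SAM and 59.5, 59.4 and 61.7% in controls. That difference of 1.42 points (SE 1.78) was within the spread of the libraries (exact permutation p = 0.70), and it was -0.106 points without SAM library 2.

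The groups did not overlap in 5 of the 9 differences, all higher with SAM: the first window joined, on its plus strand (3.21 points) and on its minus strand (1.90 points), and the chromosome 1 window joined and on its minus strand (3.94 points). The 9 are not separate results, since the joined level of a window is made from the reads of its 2 strands. The windows of the data set set beside them were taken with strands joined. Of 602 windows of the data set with at least 20 common CpGs and a mean level of 20 to 80%, 2.82% had groups apart and higher with SAM and 6.15% lower (4.36% and 5.01% of windows of any level). Among these windows 62 had a larger difference in the same direction than the first chromosome 21 window and 70 than the chromosome 1 window. The differences rested on a few CpGs, since the median difference per CpG was 0.54 points in the first window and 0.55 points in the chromosome 1 window. Weighted by reads, they were 9.18 points in the first window (exact permutation p = 0.10) and 0.312 points on chromosome 1 (exact permutation p = 0.90). On the minus strand of the chromosome 1 window the weighted difference was -0.0721 points, so there the direction turned. Without control library 2 the first window's difference was 2.18 points.

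**Figure D4:**
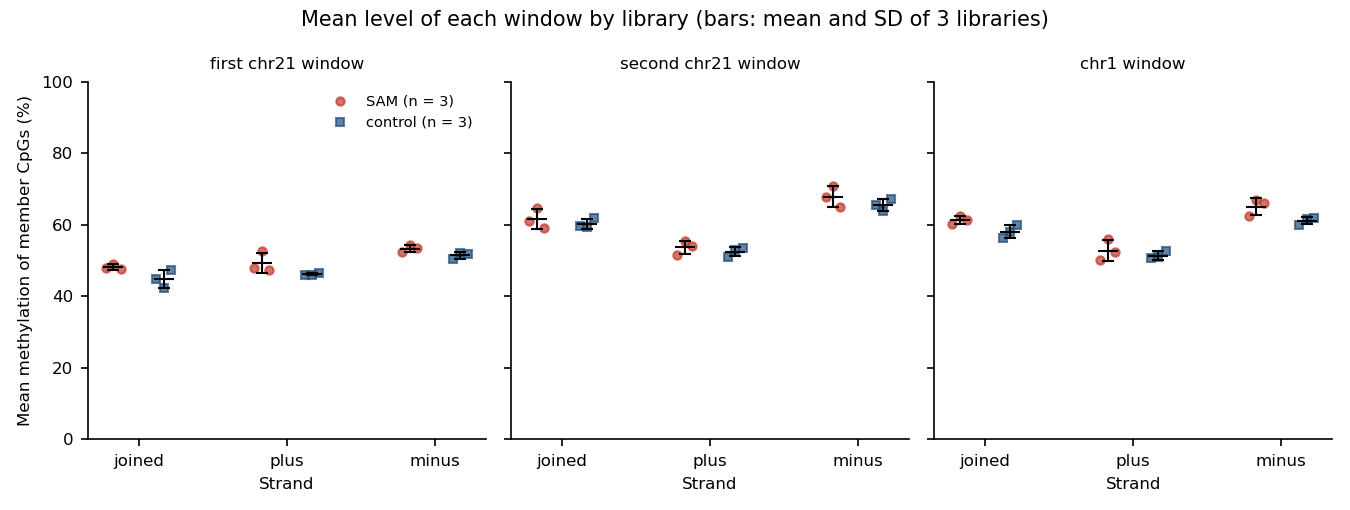
Mean methylation (%) of the members of each window in each library, for joined strands, the plus strand and the minus strand, with SAM circles left of control squares; black bars give the mean and SD of 3 libraries. SAM libraries lie above all control libraries in the first chromosome 21 window and, joined and on the minus strand, in the chromosome 1 window, by a few points.

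Clustered by read coverage over all common CpGs, the libraries did not group by treatment. One set holds SAM libraries 1 and 2 and control libraries 1 and 3, and the other SAM library 3 and control library 2. SAM library 2 lay between the sets. Within the first of these sets the difference was 2.47 points in the first window, 2.23 in the second and 3.15 on chromosome 1. Within the other set it was 5.29, -0.206 and 3.29 points, with 1 library a group. Across the members the levels of 2 libraries correlated with Pearson's r of 0.753 to 0.919, against 0.956 to 0.981 across the other common CpGs. Levels of 20 to 80% make up 79.5% of the members and 13.3% of the other CpGs. Because r depends on the range of levels, these values do not compare how closely libraries agree. Deviations of the members from their group means correlated at 0.369 between SAM library 1 and control library 3, at 0.365 between SAM library 3 and control library 2 and at 0.273 between SAM library 2 and control library 1 (292 CpGs that share reads, no test). Over all common CpGs the same pairs had 0.0242, 0.0110 and 0.00627. The first 2 of these pairs also had the most similar read coverage of all, with correlations of log2 reads of 0.908 and 0.882. Every other pair of a SAM and a control library was negative over the members, from -0.276 to -0.0151. Deviations cancel out within a group, so positive and negative pairs go together. What part the coverage sets have in the differences was not tested.

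No single member passed the test between treatments. The quasi-likelihood test of edgeR, fitted to methylated and unmethylated reads of 257696 CpGs, called 0 of 292 members, and 0.0% of all CpGs, at an adjusted p under 0.05 (smallest adjusted p of a member 0.890). Without adjustment 72 members (24.7%) had a p under 0.05, 40 of them higher with SAM, where 2.81% of all CpGs did. Levels of 20 to 80% make up 79.5% of the members and 13.3% of the other common CpGs. The backgrounds for unadjusted p-values were not limited to CpGs of like level or depth. With strands apart it called 0 of 479 positions (background 0.0%), 71 of them (14.8%) under 0.05 unadjusted against 2.76% of all positions. With reads summed per window and strand it called 0 of 6 (background 0.0%), and 1 had an unadjusted p under 0.05, against 3.11% of all. This was the minus strand of the first window. The limma test called 0 of 292 members and 0 of 257696 CpGs, with 18 members under 0.05 unadjusted. Its share of all CpGs under 0.05 is not given, so the 18 are not read as an excess. A logistic model with no term for the spread between libraries called 231 of 292 members and 28.9% of all CpGs.

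Counted by whether the groups overlap, 33 members (11.3%) had all SAM libraries above all control libraries and 29 (9.93%) below. Over all common CpGs the shares were 2.7% higher and 2.19% lower, and over those of 20 to 80% they were 4.69% and 5.3%. The median difference of all members was 0.051 points, and single differences ran from -22.7 to 57.9 points. The first chromosome 21 window had 7 higher and 5 lower, the second 20 and 24, and the chromosome 1 window 6 and 0. On the minus strand 33 positions were higher and 22 lower (background 2.73% and 2.16%, and 5.08% and 5.41% among minus-strand positions of 20 to 80%). On the plus strand 11 were higher and 17 lower (background 2.6% and 2.19%, and 4.34% and 5.44% among plus-strand positions of 20 to 80%).

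Some of the CpGs higher with SAM in the first chromosome 21 window lay together at its end, while 9825862 lies apart from these. At 9825992 the levels were 82.3, 88.4 and 80.7% with SAM and 55.2, 55.8 and 51.2% in controls, and at 9825995 they were 81.8, 88.3 and 80.6% with SAM and 58.3, 54.6 and 54.2% in controls. These CpGs had the 2 smallest edgeR p-values of all 257696 tested (unadjusted 1.02e-05 and 1.54e-05, adjusted 0.890). The next block on the same strand begins 4 bases further and crosses into the second window. That block, of 6 CpGs from 9825999 to 9826027, had minus-strand levels of 76.3, 78.6 and 60.9% with SAM and 48.1, 53.0 and 54.6% in controls. The plus strand of 9826008 to 9826027 went the other way, with 5 positions lower in every SAM library than in every control library. Their block, 9825995 to 9826047, had only 39.3 to 198 reads per CpG. Its groups overlapped, at 47.2, 52.7 and 46.5% with SAM and 51.8, 57.4 and 50.2% in controls. The 5 CpGs just before the run of higher levels were also lower, on the minus strand. At these, from 9825950 to 9825964, the minus strand had 45.6, 33.4 and 41.1% with SAM and 53.0, 53.6 and 49.8% in controls, a difference of -12.1 points.

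Reads differed at some of the same places. Over the 4 CpGs from 9825975 to 9825995 on the minus strand the libraries had 229, 1232 and 576 RPM, per CpG, with SAM and 67.6, 123 and 52.8 in controls, and the groups did not overlap. Their levels were 77.4, 83.6 and 75.7% with SAM and 54.9, 52.5 and 51.0% in controls. In the neighbouring block with lower levels there were 37.6, 53.5 and 96.6 RPM with SAM and 52.6, 123 and 43.2 in controls, so there the groups overlapped in depth. The block from 9825999 to 9826027 had 331, 1695 and 1234 RPM with SAM and 258, 1066 and 156 in controls.

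Another CpG of that window, 9825914, had 46.7, 82.4 and 66.6% on the minus strand with SAM and 9.09, 39.3 and 32.2% in controls, on 30, 176 and 650 reads with SAM and 44, 28 and 59 in controls.

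Within the sequence of hsa-miR-3648 the plus strand was read far more than the minus strand. At its first CpG, 9825862, plus-strand levels were 16.1, 17.7 and 19.4% with SAM and 11.5, 12.3 and 9.76% in controls, on 428, 616 and 2320 reads with SAM and 728, 212 and 492 in controls. Its last CpGs, 9825871 and 9825874, had together 13.8, 16.8 and 17.2% with SAM and 12.3, 10.5 and 11.6% in controls. Neither pair of groups overlaps. At 9825864 between them they did overlap, with 41.3, 45.9 and 28.4% with SAM and 28.4, 18.8 and 34.1% in controls. On the minus strand 9825874 had 60.0, 75.0 and 66.7% with SAM and 70.0, 90.0 and 77.1% in controls, on 10 to 70 reads. Upstream of it, the plus-strand block from 9825828 to 9825843 differed widely between libraries: its 5 CpGs had 48.6, 84.5 and 68.5% with SAM and 50.6, 28.5 and 34.3% in controls. The groups overlapped because SAM library 1 lay below control library 1. RPM were 16.5, 180 and 130 with SAM and 26.1, 31.0 and 13.5 in controls, so the 2 libraries with the highest levels also had the most reads.

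In the second chromosome 21 window the largest difference was at 9826382, with 50.3, 95.3 and 80% with SAM and 39.5, 0.0 and 12.5% in controls. It rests on 153, 127 and 300 reads with SAM and 76, 34 and 56 in controls, so the 0 in control library 2 allows a level of up to 8.82%, and the SD was 22.9 points with SAM and 20.2 in controls. It belongs to a plus-strand block of 6 CpGs from 9826363 with 79.5, 88.4 and 78.0% with SAM and 60.1, 53.7 and 65.6% in controls. Also in that block, 9826367 had 90.2, 88.6 and 77.1% with SAM and 73.4, 43.2 and 50.8% in controls, and 9826373 had 82.9, 88.4 and 85.3% with SAM and 74.6, 72.7 and 47.2% in controls. The other CpGs with the largest differences upward, 9826019 and 9826027, lie in the block that crosses the window border. On the plus strand 9826540 had 63.9, 46.9 and 56.6% with SAM and 16.7, 21.1 and 29.0% in controls, at 38 to 498 reads.

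Directly before and at the first base of the MIR10396B hairpin, 8 CpGs from 9826411 to 9826449 had minus-strand levels of 94.7, 96.0 and 94.1% with SAM and 92.2, 88.8 and 86.4% in controls, 5.82 points apart. All 8 were higher in each SAM library than in each control library, as were their RPM (48.8, 102 and 47.1 with SAM, 45.0, 19.7 and 23.0 in controls). Of the 9 CpGs of the hairpin 2 had enough reads in every library. The first, 9826449, had 94.8, 96.5 and 94.2% on the minus strand with SAM and 93.4, 88.3 and 86.4% in controls. The other, 9826452, had 60.0, 90.0 and 71.8% on joined strands with SAM and 90.0, 100% and 100% in controls, on 30, 351 and 478 reads with SAM and 10, 26 and 15 in controls. Its mean was lower with SAM by 22.7 points, but the groups overlapped, as SAM library 2 was level with control library 1.

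The largest run lower with SAM in the second window was on the minus strand, where 13 CpGs from 9826881 to 9826934 had 65.5, 69.6 and 67.3% with SAM and 72.4, 71.3 and 77.5% in controls, a difference of -6.29 points at 6387 reads per CpG or more. RPM there were 427, 546 and 204 with SAM and 383, 193 and 523 in controls and overlapped. Within it 9826931 had 69.6, 72.8 and 71.1% with SAM and 76.4, 76.4 and 81.8% in controls. With strands joined, the largest difference downward among CpGs of this window whose groups do not overlap was at 9826641, with 48.3, 42.4 and 39.7% with SAM and 58.1, 54.4 and 49.9% in controls. On the minus strand alone, the shallow block of 9826694 and 9826704 was lower by 23.5 points without overlap, with 84.1, 46.2 and 75.0% with SAM and 84.2, 100% and 91.7% in controls, on 12 to 41 reads per CpG. On the plus strand the block of 14 CpGs from 9826146 to 9826203 was lower by a few points, with 51.4, 54.0 and 51.6% with SAM and 55.3, 54.0 and 57.1% in controls, although SAM library 2 and control library 2 were level. The minus strand over nearly the same CpGs, 16 from 9826170 to 9826226, had 89.6, 91.1 and 91.0% with SAM and 90.9, 90.4 and 89.2% in controls.

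SAM library 2 alone set the mean of another run. Over the 10 CpGs from 9826648 to 9826671 on the minus strand SAM library 2 had 37.7%, SAM libraries 1 and 3 had 13.2 and 9.06%, and the control libraries had 3.15, 5.86 and 9.60%. The groups overlapped, and the SD with SAM was 15.5 points.

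In the chromosome 1 window the 6 CpGs higher with SAM fell into 2 places near the ends of the covered stretch. At 156186629 on the minus strand the levels were 72.7, 75.8 and 74.9% with SAM and 36.3, 38.1 and 25.6% in controls, 41.1 points higher (seventh smallest edgeR p of all CpGs, unadjusted 5.45e-05, adjusted 0.890). The 4 CpGs just before, 156186609 to 156186625, had 53.6, 62.1 and 61.5% with SAM and 35.9, 44.6 and 45.7% in controls. RPM at 156186629 were 4.04, 40.3 and 86.4 with SAM and 3.90, 6.35 and 0.872 in controls, with control library 2 above SAM library 1. Over the 4 CpGs before they were 7.14, 51.7 and 106 with SAM and 28.8, 87.6 and 12.3 in controls, and the groups overlapped. At 156186321 the minus strand had 52.6, 91.5 and 81.5% with SAM and 22.3, 6.59 and 8.14% in controls, the largest difference of any strand position, 62.9 points. At 156186342 the plus strand had 59.4, 58.1 and 58.7% with SAM and 35.8, 36.8 and 51.9% in controls, and its block from 156186321 had 58.7, 58.3 and 60.4% with SAM and 38.8, 37.9 and 53.0% in controls. The plus strand of 156186285 and 156186289 was lower, with 36.5, 36.3 and 37.9% with SAM and 40.7, 38.7 and 44.6% in controls.

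Most of the reads of that window showed no such difference. The 9 CpGs from 156186530 to 156186586 on the minus strand, at 31886 to 638359 reads per CpG, had 73.9, 77.2 and 77.4% with SAM and 76.6, 77.3 and 76.6% in controls, and the groups overlapped.

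Taken over blocks, 15 of 104 (14.4%) had all SAM libraries above all control libraries and 4 (3.85%) below, against 4.43% and 3.23% of all blocks of the data set. Blocks with higher levels were often those with more reads. In 18 blocks the geometric mean of RPM was more than 2-fold higher with SAM. Of these 18, 9 were higher in level without overlap and 0 lower, and the median difference of the 18 was 15.7 points. Most of the 18, and most of the 9, held a single CpG. Some were neighbours on 1 strand, such as those from 9825820 to 9825864 on the plus strand, so the blocks are not separate results. Among the 83 blocks within 2-fold, 6 were higher and 4 lower, with a median of 0.241 points. The 3 blocks with more than 2-fold fewer reads with SAM had overlapping groups and level differences of 8.61, 5.31 and -3.29 points. Of the 1966 other blocks of the data set with more than 2-fold more reads with SAM, 3.31% were higher and 2.70% lower, with a median of 0.0 points. Of those at 20 to 80%, 235 blocks, 9.79% were higher and 5.96% lower.

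Across the 104 blocks the level difference correlated with the log2 ratio of reads, SAM over control, at Pearson's r = 0.448 and Spearman's rho = 0.280. These are descriptions, since blocks share libraries and depth. Across all other blocks r was -0.0438. Depth itself did not overlap between the groups in 4 of these blocks, of which 2 were higher in level, and overlapped in the others. With each library left out in turn the 18 blocks, chosen on all 6 libraries, kept a median difference of 11.8 to 20.3 points. Within the coverage set of SAM libraries 1 and 2 and control libraries 1 and 3 it was 17.2 points. For SAM library 3 and control library 2 it was 10.3 points. With blocks over 2-fold chosen anew without SAM library 1, 17 of 34 were higher without overlap and 3 lower. Without control library 1 these were 12 and 1 of 19, and without control library 3 they were 7 and 1 of 14. Leaving out any other library gave no lower block. Within the coverage set of 4 libraries 9 of 21 were higher and 2 lower. Shares over the other blocks of the data set are not given for these choices of libraries. The part of depth in the level differences was not tested.

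**Figure D5:**
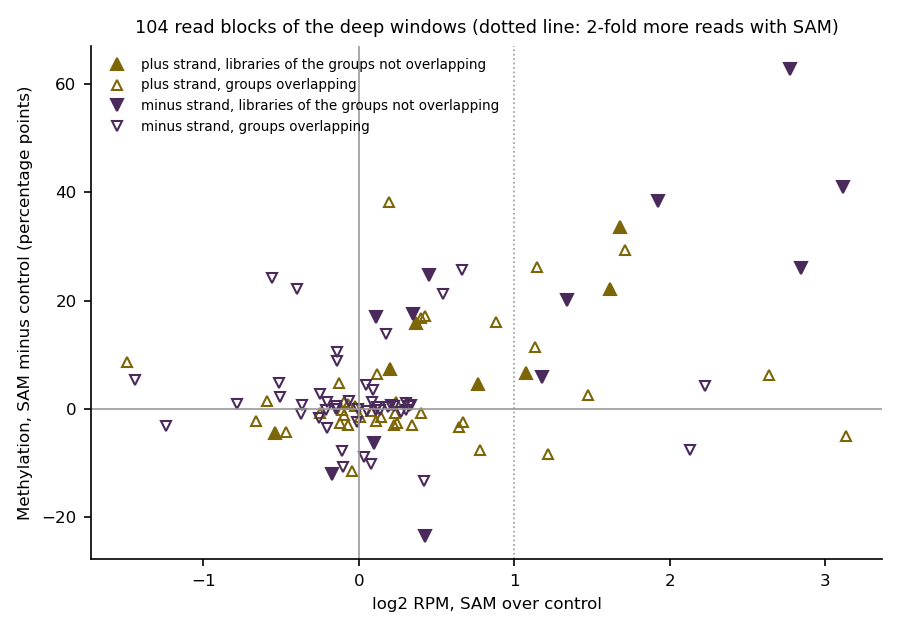
Difference in methylation (SAM minus control, percentage points) of the 104 read blocks against the log2 ratio of their RPM (SAM over control), by strand; filled points are blocks whose SAM and control libraries do not overlap. To the right of the dotted line, at 2-fold more reads with SAM, 9 of 18 blocks are filled and above 0, and none is filled and below 0.

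The share of reads that each window drew did not separate the groups. The first window took 0.601, 1.89 and 1.68% of listed reads with SAM and 1.12, 1.62 and 0.411% in controls (difference 0.337 points, exact permutation p = 0.50). The second took 3.93, 6.44 and 4.85% with SAM and 4.78, 4.64 and 3.39% in controls (0.805 points, exact permutation p = 0.40). The chromosome 1 window took 3.48, 2.84 and 2.11% with SAM and 2.27, 1.82 and 3.07% in controls (0.426 points, exact permutation p = 0.50). In each window the spread between libraries of 1 group exceeded the difference.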

How the data were processed

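For each CpG position and strand the deposited lists hold, per the file headers, the read count (coverage) and the percent C and percent T among them. Per the submitters' processing notes the build was hg19 and the tools included CASAVA 1.8.2, FastQC 0.10.0, Bismark 0.7.4 and methylKit 0.5.3. The library type is not given in the sources used here, nor is the handling of duplicates, and no list held a position under 10 reads. Read numbers may therefore overstate precision.

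Methylated reads were recovered as coverage times percent C, which gave back the deposited percent to within 0.005 points. The minus-strand C was joined to the plus-strand C 1 base before it. The windows, members, lists and rules were chosen with earlier results of these data known. Window levels weight each CpG equally and were compared by exact permutation over libraries, and strands and comparisons with other CpGs by exact sign-flip. Single CpGs, strand positions and strand windows with at least 3 positions were tested over the whole data set with edgeR 4.0.16 (quasi-likelihood, Benjamini-Hochberg, adjusted p under 0.05). Features with 0 methylated or 0 unmethylated reads were left out of it, which removed no member. This fit was tested on simulated data drawn from real coverages. The simulation held no spread between libraries beyond counting error, so it does not cover the spread of these libraries. Alternatives were limma 3.58.1 on the log2 of methylated over unmethylated reads (pseudocount 2), a logistic model, coverage minimums of 20 and 100 reads, reads as weights, strands apart, library sets by coverage, a replicate block and leaving out each library. Blocks and their settings, and moving SAM library 2 to the other coverage set, were added after seeing the data. Named CpGs were, per window, the 5 largest differences each way among CpGs whose groups do not overlap, the highest, lowest and deepest, the 5 smallest edgeR p-values, the 5 largest differences per strand, and CpGs of placed miRNAs. Other blocks named were chosen after their values were seen. R 4.3.3, Python 3.11.15, numpy 2.4.6, pandas 2.3.3, scipy 1.17.1 and matplotlib 3.10.9 were used.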

Additional observations from a re-analysis of the deposited data

How the results depend on the processing

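Of the 3 window differences with strands joined, those of the first chromosome 21 window and the chromosome 1 window stayed higher with SAM under every alternative run, at 2.18 to 4.63 and 2.32 to 4.07 points with each library left out. On the minus strand of the chromosome 1 window the difference of 3.94 points was -0.0721 points with CpGs weighted by their reads. The second window's difference was -0.206 points in the coverage set of SAM library 3 and control library 2, and -0.106 to 2.64 points with each library left out. The strand gap of the first window was -3.93 points with at least 100 reads and 14.3 points with CpGs weighted by their reads. With each library left out the gaps were 7.52 to 8.48, 16.5 to 17.8 and 12.9 to 13.3 points, and the members' excess over other CpGs 17.9 to 19.0 points, where 5 libraries allow no exact p under 0.0625. Members whose groups do not overlap numbered 62, 28 on the plus strand, and 70 to 97 with a library left out. Blocks whose groups do not overlap numbered 19, 11 of 66 with at least 100 reads, and 21 to 36 with a library left out, where fewer samples must be apart. For members and blocks counted with a library left out or with at least 100 reads, shares over the whole data set are not given. Those counts are therefore no result about the members. The logistic model called 231 members, while edgeR called 0 with each library left out, at adjusted p-values down to 0.0694 without SAM library 2 and 0.133 without SAM library 3.

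Replicate numbers did not pair the libraries: deviations of equally numbered libraries correlated at -0.00509, 0.00846 and -0.00791 over all common CpGs. Over the members these correlations were -0.173, -0.268 and -0.276. With the replicate block edgeR called 0 members, and the window differences remained 3.41, 1.42 and 3.19 points (exact sign-flip permutation p = 0.25, 0.75 and 0.25). Depth limits the shallow blocks most: a position with 10 reads moves by 10 points with each read, and reads that were copied in amplification cannot be told from independent ones.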
